A study of Mus musculus with 15 samples.

Results

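Genes encoding peroxisomal enzymes, membrane transporters and peroxins were compared in the liver of Adult, Old and PDX-treated mice. The members were a list of 39 gene symbols, matched to the gene IDs of the count table, of which 26 encode enzymes or transporters and 13 are Pex genes. All 39 were found among the 55450 gene IDs, and 38 of them (25 enzymes or transporters and 13 Pex genes) were among the 15808 genes that passed the filter on low counts. The exception was Dao, which encodes a D-amino acid oxidase and had close to 0 counts in every liver, so it entered no test.

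Peroxisomes are small organelles that are abundant in hepatocytes, where they shorten very long-chain, branched and dicarboxylic fatty acids by beta-oxidation, oxidize 2-hydroxy acids, urate and amino acid derivatives, and break down the hydrogen peroxide that their oxidases form. They have no DNA of their own, so every enzyme is made in the cytosol and carried in by receptors that the Pex genes encode, and other Pex proteins insert membrane proteins, recycle the receptors and help the organelle divide. In mouse liver several genes of peroxisomal beta-oxidation are classical targets of the fatty acid receptor PPARalpha.

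The poly(A) RNA sequenced came from the livers of 15 female mice of the C57BL/6 strain, in 3 groups of 5. The Adult group, with mice A1 to A5, entered the study at 6 months of age and the Old group, with O1 to O5, at 22 months, and both received corn oil by daily gavage as vehicle. The PDX group, with P1 to P5, entered at 22 months as well and received protectin DX, a lipid mediator derived from docosahexaenoic acid, in corn oil at 30 ng per g of body weight. The sample labels give 9 weeks of gavage and the series description 8 weeks. Each library came from a different animal, and counted read pairs per library ran from 22424383 to 36070835 for Adult, from 25480180 to 29069346 for Old and from 26113995 to 30139181 for PDX mice. Levels below are CPM values, that is counts scaled to a common library total, after TMM scaling for differences in library composition, unless RPKM, the same value per kilobase of exon, is named.

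O2 and O5 stood apart from the other Old livers. The TMM factor was 1.33 in O2 and lay between 0.884 and 1.08 in the 14 other livers. In O2, 35.3% of the 15808 tested genes lay below the lowest Adult mouse and 36.5% above the highest, in O5 39.4% and 39.1%, and in O1, O3 and O4 at most 31.5% and 30.3%. The labels give O1 to O5 a frailty index of 0.17, 0.11, 0.19, 0.33 and 0.56, with 1, 3, 3, 4 and 4 positive frailty criteria, and a treadmill distance of 53.9, 33.9, 63.4, 76.9 and 46.6 m, of which that of O2 was the shortest of all 15 mice.

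Markers of liver cell types were read beside the members. The summed CPM of the 7 hepatocyte markers that could be matched, of which Alb had the most counts, was 217632 in O1, 81008 in O2, 134766 in O3, 181377 in O4 and 73901 in O5, against 132944 to 145306 in Adult and 125363 to 176893 in PDX mice. The sum was lowest in O2 and O5, and Alb made up 78.5% of it. In O2 all 7 markers were below every Adult mouse, Alb at 65645 CPM, Ttr at 1753, Ahsg at 6124, Apoh at 1126, Apoa2 at 1575, Fgb at 4339 and Hnf4a at 447 CPM. In O5 Alb, Ttr (643 CPM), Apoa2 (1362 CPM) and Apoh (1264 CPM) were below every Adult mouse, Ahsg (8041 CPM) lay within the Adult range, and Hnf4a (1483 CPM) and Fgb (26385 CPM) were above it. Of these 7 markers edgeR called 0 between Old and Adult, with 3 at an unadjusted p under 0.05, 3 called by DESeq2 and 0 by limma. The eighth hepatocyte marker, Tf, had no matching symbol. The 7 neutrophil markers, with S100a9 the most abundant, summed to 10.1 CPM in O1, 234 in O2, 14.3 in O3, 10.1 in O4 and 40.9 in O5, and to 2.38 to 5.70 CPM in Adult and 14.4 to 72.8 CPM in PDX mice. All 7 rose between Adult and Old by edgeR and by DESeq2, 2 by limma, and 2 by edgeR without O2 and O5. The 6 lymphocyte markers, with Ptprc the most abundant, summed to 36.6, 208, 89.2, 30.9 and 17.2 CPM in O1 to O5, against at most 22.2 CPM in Adult and 40.1 to 97.5 CPM in PDX mice. Of them 2, Ms4a1 and Cd79a, rose by edgeR, with 5 called by DESeq2, 0 by limma and 2 by edgeR without O2 and O5. The 6 stellate cell markers, with Dcn the most abundant, summed to 343, 650, 443, 364 and 840 CPM in O1 to O5, against 338 to 373 CPM in Adult and 331 to 623 CPM in PDX mice. Col1a1 and Des rose by edgeR, with 3 called higher and 1 lower by DESeq2, 0 called by limma and 0 by edgeR without O2 and O5. Of the 6 macrophage markers, with Clec4f the most abundant, edgeR called 0, with 3 at an unadjusted p under 0.05, 1 called by DESeq2 and 0 by limma, and they summed to 434, 2722, 583, 380 and 188 CPM in O1 to O5, against 330 to 455 CPM in Adult and 497 to 980 CPM in PDX mice. Of the 6 endothelial markers, with Clec4g the most abundant, 0 were called, with 2 at an unadjusted p under 0.05 and 0 by DESeq2 or limma, and the sums were 260, 306, 289, 245 and 141 CPM in O1 to O5, against 286 to 309 CPM in Adult and 251 to 329 CPM in PDX mice.

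Of the 4 tested cholangiocyte markers (of 5), with Sox9 the most abundant, 0 were called, with 4 at an unadjusted p under 0.05, 3 by DESeq2 and 0 by limma, and the 5 summed to 10.2, 8.66, 11.2, 18.0 and 40.1 CPM in O1 to O5, against 6.02 to 10.3 CPM in Adult and 7.77 to 18.2 CPM in PDX mice. Of the 6 erythroid markers, with Hbb-bs the most abundant, 0 were called, with 0 at an unadjusted p under 0.05 and 0 by DESeq2 or limma, and they summed to 205, 1059, 476, 120 and 95.8 CPM in O1 to O5, against 174 to 266 CPM in Adult and 125 to 478 CPM in PDX mice. No marker of these lists was at 3 counts or fewer in every liver. Fewer cells of a type and less RNA per cell cannot be told apart in such bulk samples, and the part of cell composition in the results below was not tested.

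The members spanned a wide range of levels per length. In Adult mice, catalase (Cat) had the highest mean, 1042 ± 49.3 RPKM (SD, n = 5), followed by the thiolase Acaa1b (645 ± 86.1), Phyh (617 ± 42.3), urate oxidase (Uox, 396 ± 63.8) and the very long-chain acyl-CoA synthetase Slc27a2 (283 ± 42.2). Acaa1b and Phyh lay within each other's SD, and Scp2 (269 ± 11.3) within that of Slc27a2, so the order within each pair was not resolved. The highest Pex gene was Pex16, at 54.2 ± 7.48 RPKM, followed by Pex5 at 42.6 ± 2.39 RPKM and by Pex19 at 33.1 ± 2.50 RPKM and Pex6 at 32.9 ± 0.882 RPKM, whose order was not resolved. At the other end stood Pex10 (1.99 ± 0.358 RPKM), Agps (1.03 ± 0.103 RPKM) and Far1 (0.434 ± 0.0571 RPKM). The members took 1.44% ± 0.0482 (SD, n = 5) of the counted pairs of an Adult liver, of which Pex genes made up 0.0936% ± 0.00337. In the Old group the members took 0.823% ± 0.257, and in the PDX group 0.878% ± 0.117, and neither group overlapped the Adult mice. The Old mice ranged from 0.522% in O5 and 0.707% in O2 to 1.22% in O3.

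**Figure D1:**
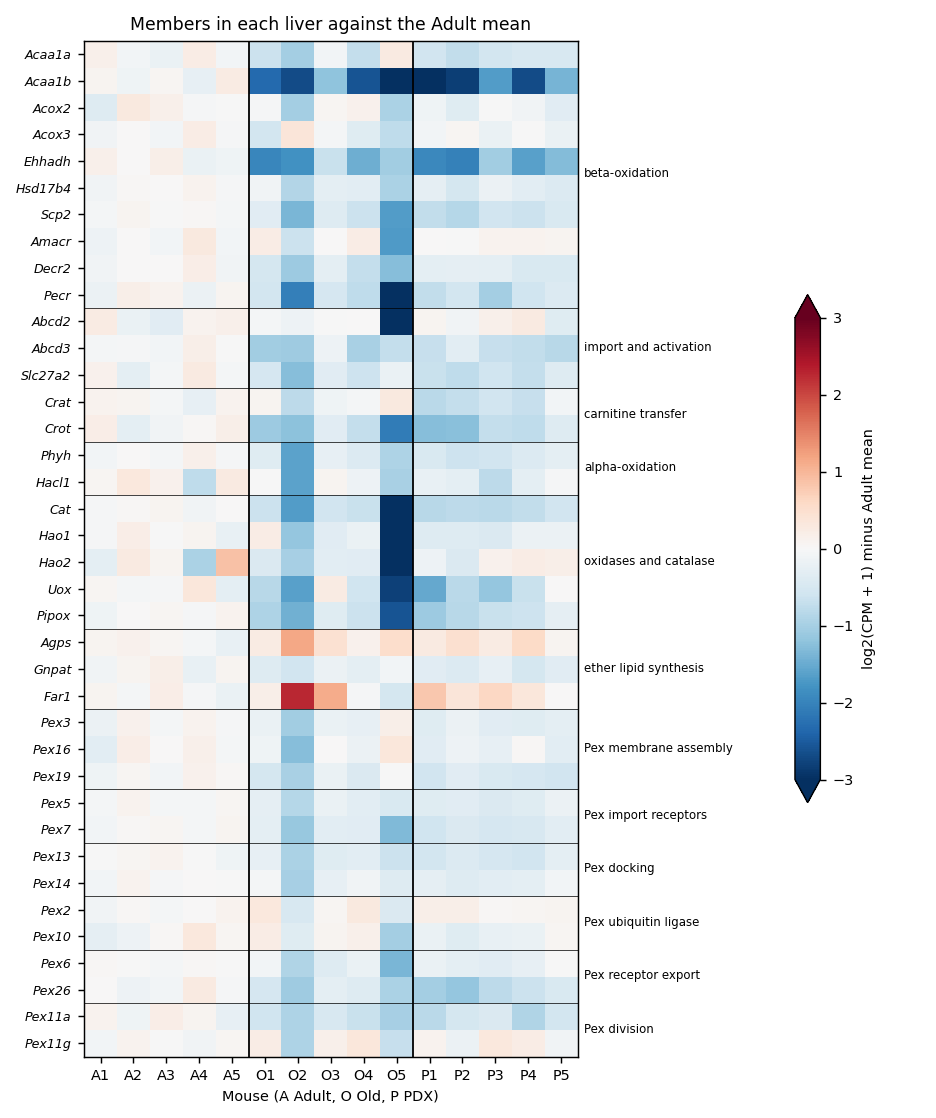
Level of each of the 38 tested members (grouped by role, downward) in each of the 15 livers (across), as log2(CPM + 1) minus the mean of the 5 Adult mice, with blue below and red above that mean and colours ending at 3 in both directions. Acaa1b and Ehhadh are blue in all 10 aged livers, O5 is darkest for Acaa1b, Pecr, Abcd2, Cat and Hao1, and O2 is red for Far1 and Agps.

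The comparison of Old with Adult mice asked how the genes differ with age. Lower in Old livers were the beta-oxidation genes Acaa1b, Ehhadh, Scp2 and Decr2, the transporter gene Abcd3, the acyltransferase gene Crot and the Pex genes Pex11a, Pex26 and Pex13, and no member was called higher. Of 38 tested members, 9 fell (23.7%) at a threshold of 0.05 on the p that edgeR gave by quasi-likelihood, adjusted over all genes tested by Benjamini-Hochberg, against 2.07% of all genes called lower. None was called higher, against 4.71% of all genes, with 2 members (Agps and Far1) at an unadjusted p under 0.05, 1 called by DESeq2 and 0 by limma. Without overlap of the mice, 17 members were lower in Old, against 4.48% of all genes, and 1 (Agps) was higher, against 3.65%. The median log2 fold change of the tested members was -0.48, against 0.07 for all genes tested, both after TMM scaling. In a separate fit with scaling by library size only, the median of all genes was 0.16. That value is not comparable with the -0.48 of the members, which comes from the TMM fit.

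Below, a member passed or did not pass in edgeR's fit of all 15 mice unless another fit is named. Beyond the 9, DESeq2 called Hsd17b4, Slc27a2, Phyh, Cat, Pipox, Pex5 and Pex7 lower, and limma Pipox. Without O2 and O5 edgeR called Pecr, Slc27a2, Cat, Pipox, Pex19 and Pex7 lower, and of the 9 it lost Abcd3, Crot, Pex13 and Pex26. Without O5 it gained Acaa1a, Pecr, Slc27a2, Cat, Pipox, Gnpat, Pex19, Pex5 and Pex7, and without O3 Phyh, Cat, Pipox, Pex5 and Pex7. Without O1 it gained Hsd17b4, Pex7 and Pex6 and lost Acaa1b and Crot, and without O4 it gained Pipox and Pex7 and lost Acaa1b. With library size only it called Phyh, Pex5 and Pex7 and lost Crot (adjusted p = 0.0551), and with DESeq2 size factors it lost Scp2 (adjusted p = 0.0502).

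The count of 9 depended on the mice in the fit. It was 2 when any single one of A1, A2, A3, A4 and A5 was left out, 3 without O2, 14 without O3, 18 without O5, 5 without P1, P3 or P4, 6 without P2, and 11 without O2 and O5 together, and it was 0 when only the 10 Adult and Old mice were fitted, where Ehhadh and Pex11a each had an adjusted p of 0.0544. With a replicate block and also without the low-count filter the count was 3, with Ehhadh, Decr2 and Pex11a kept, and with the block Acaa1b had an adjusted p of 0.0899, Scp2 0.0899, Abcd3 0.0737, Crot 0.0869, Pex13 0.0932 and Pex26 0.0639. Among all genes tested the calls numbered 1072 with all mice, 156 to 243 without 1 Adult mouse, 691 without O2 and 2178 without O3. They numbered 2115 without O5, 707 to 792 without 1 of P1 to P4, and 1158 without O2 and O5. With only the 2 groups they numbered 105, with the block 237 and without the low-count filter 665. Far1 was called higher without O5, and Agps without O1 or O4 and with DESeq2.

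Beta-oxidation itself gave 4 of the 9 calls among its 10 members. Acaa1b encodes a 3-ketoacyl-CoA thiolase, which cleaves the shortened chain in the last step of the cycle. It had 1340, 1140, 1306, 1056 and 1483 CPM in A1 to A5, and 250, 195, 541, 208 and 8.12 CPM in O1 to O5. Every Old liver was below every Adult liver, and O5 was almost without transcript. Its mean in Old mice was 19.0% of that in Adult mice and it fell by 2.39 on the log2 scale (SE 0.660, adjusted p = 0.0433). Without O2 and O5 it fell by 1.91 (adjusted p = 0.0157), and over all 23 alternatives its adjusted p ranged from 0.00197 to 0.125, losing the call without any of A1 to A5, without O1, O2 or O4, and without P1, P2, P3 or P4.

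Ehhadh encodes the bifunctional enzyme that hydrates and dehydrogenates the enoyl-CoA intermediates, and is a well-known PPARalpha target. It had 850, 768, 869, 672 and 700 CPM in A1 to A5, and 197, 219, 485, 278 and 370 CPM in O1 to O5. The groups were apart, and here O5 was not the lowest mouse but above O1, O2 and O4. Ehhadh fell by 1.32 on the log2 scale (SE 0.255, adjusted p = 0.0151), and the call held without each of the 15 mice in turn.

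Scp2, which encodes the thiolase for branched chains together with the sterol carrier protein, had 904, 990, 931, 962 and 898 CPM in Adult and 738, 359, 714, 600 and 292 CPM in Old mice. Its lowest levels were in O5 and O2, and it fell by 0.79 (SE 0.227, adjusted p = 0.0487), a call lost without O2 (adjusted p over all alternatives 0.00970 to 0.158), without any of A1 to A5 and without any of P1 to P5. Decr2, a dienoyl-CoA reductase that prepares unsaturated chains, had 191, 209, 207, 235 and 192 CPM in Adult and 142, 97.0, 168, 126 and 84.3 CPM in Old mice. It fell by 0.74 (SE 0.165, adjusted p = 0.0239), with every Old mouse below the Adult mice, and lost the call without any of A1 to A5 (adjusted p over all alternatives 0.000682 to 0.108). The 6 others of this role, namely Acaa1a, Acox2, Acox3, Hsd17b4, Amacr and Pecr, did not pass in edgeR's fit of all mice, with log2 fold changes from -1.16 (Pecr) to -0.23 (Amacr). Among them the Old and Adult mice did not overlap for Hsd17b4 (-0.47) and Pecr, and Acaa1a (-0.37), Acox2 (-0.30), Acox3 (-0.23) and Amacr overlapped. Without O2 and O5 the log2 fold changes were -0.46 for Acaa1a, 0.04 for Acox2 and -0.32 for Acox3. In that fit Hsd17b4 was at -0.22, Amacr at 0.16 and Pecr at -0.60 (adjusted p = 0.0234).

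Of the proteins that bring fatty acids to the organelle, 1 of 3 was called. Abcd3 encodes the abundant membrane transporter for branched and dicarboxylic acyl-CoA. It had 515, 526, 508, 607 and 534 CPM in Adult and 262, 255, 485, 274 and 327 CPM in Old mice. O3 came close to the lowest Adult mouse and the other Old mice were well below it, and Abcd3 fell by 0.75 (SE 0.180, adjusted p = 0.0292, from 0.00116 to 0.115 over all alternatives), a call lost without O2, without any of A1 to A5, and without O2 and O5 together. In the last of these fits its log2 fold change was -0.65, with an adjusted p of 0.050001. Slc27a2 (log2 fold change -0.56, adjusted p = 0.0767) and Abcd2 (-0.36, adjusted p = 0.610) did not pass in edgeR's fit of all mice, while DESeq2 called Slc27a2, and their groups overlapped. Without O5 the log2 fold change of Abcd2 was -0.07 (adjusted p = 0.780).

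The carnitine acyltransferases move shortened chains out of the peroxisome, and 1 of these 2 was called. Crot, the octanoyltransferase, had 697, 496, 566, 618 and 680 CPM in Adult and 284, 259, 482, 369 and 142 CPM in Old mice, without overlap. It fell by 0.99 (SE 0.271, adjusted p = 0.0420), a call lost without O1 or O2, without any of A1 to A5 and of P1 to P4, and without O2 and O5 together (adjusted p over all alternatives 0.00644 to 0.124). Crat, the acetyltransferase, had 82.2, 79.9, 73.4, 63.7 and 81.9 CPM in Adult and 79.8, 43.6, 69.1, 72.4 and 92.5 CPM in Old mice. Only O2 was below the Adult range, and the log2 fold change was -0.09 (SE 0.184, adjusted p = 0.781).

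No member of alpha-oxidation or of the oxidases was called in edgeR's test. Phyh, which hydroxylates phytanoyl-CoA, had 1098, 1176, 1121, 1302 and 1146 CPM in Adult and 903, 380, 989, 876 and 618 CPM in Old mice. The groups did not overlap, and its log2 fold change of -0.63 (SE 0.215) had an adjusted p of 0.0761, and that of Hacl1, the lyase of the next step, was -0.45 (adjusted p = 0.339). Of these 2 genes 1 had an unadjusted p under 0.05, and DESeq2 called it (Phyh). Without O2 and O5 the log2 fold changes were -0.33 for Phyh and -0.05 for Hacl1.

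Catalase breaks down hydrogen peroxide. Cat had 2660, 2797, 2882, 2544 and 2725 CPM in Adult and 1732, 844, 1814, 1720 and 254 CPM in Old mice. O1, O3 and O4 lay close together, O2 was below them and O5 lowest of all, and every Old mouse was below every Adult mouse. The log2 fold change was -1.10 (SE 0.369, adjusted p = 0.0750) with all mice, and without O2 and O5 Cat was called, with a log2 fold change of -0.62 (adjusted p = 0.00413). DESeq2 called Cat with all mice. Called by edgeR without these mice was also Pipox, which oxidizes pipecolic acid and sarcosine (-1.02, adjusted p = 0.0541, and -0.62, adjusted p = 0.0400, without O2 and O5), which DESeq2 and limma called with all mice. Uox (-0.82), Hao1 (-0.60) and Hao2 (-0.96), the last 2 of which encode 2-hydroxy acid oxidases, did not pass with or without these mice. Without O2 and O5 their log2 fold changes were -0.32 for Uox, -0.07 for Hao1 and -0.49 for Hao2.

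Of the 3 members of ether lipid synthesis, Agps and Far1 had log2 fold changes above 0. Gnpat, the acyltransferase of the first step, had 56.5, 64.3, 68.9, 52.4 and 64.3 CPM in Adult and 46.1, 40.9, 53.9, 49.9 and 58.0 CPM in Old mice, which overlapped (log2 fold change -0.30, SE 0.115, adjusted p = 0.105). Agps, which exchanges the acyl for an alkyl chain, had 10.3, 10.6, 10.2, 9.26 and 8.18 CPM in Adult and 11.6, 22.6, 13.6, 10.6 and 14.4 CPM in Old mice. It was the 1 member with every Old mouse above every Adult mouse, by a narrow margin in O4, and its log2 fold change was 0.59 (SE 0.186, adjusted p = 0.0633). Without O2 and O5 the log2 fold change of Agps was 0.31 (adjusted p = 0.176). Far1, which makes the fatty alcohol for that step, had 3.71, 3.31, 4.15, 3.37 and 2.93 CPM in Adult and 4.03, 20.3, 8.75, 3.38 and 2.13 CPM in Old mice. Its mean was carried by O2 and O3, while O5 was below the Adult range, and the log2 fold change of 1.15 (SE 0.468) had an adjusted p of 0.128, and of 0.179 without O2 and O5.

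Among the 13 Pex genes 3 fell, or 23.1%, close to the 24.0% of the enzymes. Pex11a, a membrane protein of peroxisome division whose gene responds to PPARalpha agonists, had 66.4, 56.0, 70.5, 65.7 and 51.5 CPM in A1 to A5, and 40.1, 32.2, 43.6, 38.6 and 30.5 CPM in O1 to O5. All Old mice lay below the lowest Adult mouse and close together. It fell by 0.75 on the log2 scale (SE 0.135, adjusted p = 0.0110), the smallest p of the members, and the call held without each of the 15 mice in turn. Pex11g, of the same family, had a log2 fold change of -0.10 (adjusted p = 0.803), and of 0.25 (adjusted p = 0.191) without O2 and O5.

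Pex26 anchors the export complex that pulls import receptors back out of the membrane. It had 31.7, 27.8, 29.2, 37.7 and 30.4 CPM in Adult and 21.6, 14.4, 25.3, 23.7 and 15.5 CPM in Old mice. The groups were apart, and Pex26 fell by 0.64 (SE 0.177, adjusted p = 0.0429), a call lost without O2, without any of A1 to A5, without P1, P3 or P4, and without O2 and O5 together (adjusted p over all alternatives 0.0133 to 0.121). Pex6, an ATPase of that complex, had 128, 123, 120, 128 and 125 CPM in Adult and 117, 66.8, 95.5, 108 and 47.8 CPM in Old mice, lowest in O5 and O2. Its log2 fold change of -0.52 (SE 0.192) had an adjusted p of 0.0963, although the groups did not overlap.

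The docking proteins receive the loaded receptors at the membrane. Pex13 had 58.2, 61.2, 63.4, 58.1 and 54.0 CPM in Adult and 49.4, 29.9, 45.5, 46.9 and 37.3 CPM in Old mice, without overlap, and fell by 0.50 (SE 0.129, adjusted p = 0.0360), a call lost without O2, without any of A1 to A5, and without O2 and O5 together (adjusted p over all alternatives 0.00881 to 0.136). Pex14, its partner, had 66.9, 75.4, 68.8, 71.0 and 70.0 CPM in Adult and 67.8, 34.8, 59.6, 64.8 and 53.3 CPM in Old mice. O1 lay within the Adult range, and the log2 fold change was -0.33 (SE 0.147, adjusted p = 0.162).

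The receptors for enzymes with a targeting signal at either end of the protein did not pass in edgeR's fit of all mice, while DESeq2 called both, and neither overlapped between the groups. Pex5, which carries most matrix enzymes, had 161, 180, 161, 162 and 176 CPM in Adult and 138, 91.9, 146, 134 and 122 CPM in Old mice. All Old mice were lower and O2 lowest, and the log2 fold change was -0.41 (SE 0.125, adjusted p = 0.0578), beside -0.62 (adjusted p = 0.0552) for Pex7, the receptor of Phyh, Agps and the Acaa1 thiolases.

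The remaining Pex genes overlapped between the groups. Pex16, which helps to build the membrane, had 76.3, 110, 96.9, 106 and 91.6 CPM in Adult and 87.4, 38.5, 95.5, 84.6 and 122 CPM in Old mice. O2 was lowest and O5 highest of all 10, so the groups overlapped, and the log2 fold change was -0.17 (SE 0.221, adjusted p = 0.658), beside -0.27 for Pex3 and -0.40 for Pex19 (adjusted p = 0.320 and 0.0991). Pex2, of the ubiquitin ligase that marks receptors for recycling, had 45.6, 50.4, 47.0, 49.4 and 53.2 CPM in Adult and 60.8, 34.8, 51.1, 60.2 and 36.3 CPM in Old mice. O1 and O4 were above and O2 and O5 below the Adult range, and the log2 fold change was -0.01 (SE 0.149, adjusted p = 0.961), beside -0.15 for Pex10 (adjusted p = 0.723). Without O2 and O5 the values were 0.24 for Pex2 (adjusted p = 0.107) and 0.17 for Pex10 (adjusted p = 0.532).

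**Figure D2:**
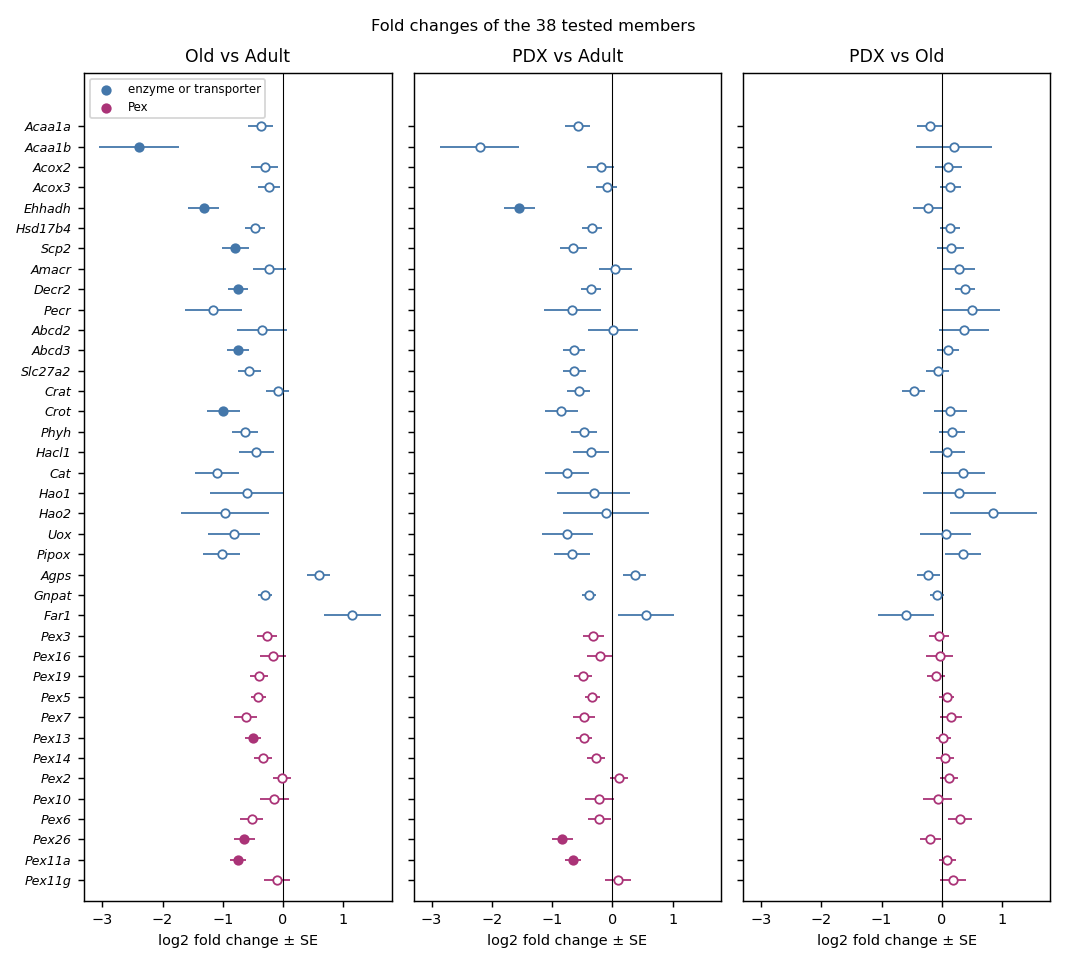
Log2 fold change (x axis, with SE as bars) of each of the 38 tested members in edgeR's fit of all 15 mice, for 3 comparisons, with enzymes and transporters in blue, Pex genes in purple and filled points past the adjusted threshold. Filled points number 9 for Old vs Adult, 3 for PDX vs Adult and 0 for PDX vs Old, and the Acaa1b bars are among the widest.

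Enzymes and Pex genes were then set side by side. The median log2 fold change between Old and Adult was -0.60 for the 25 tested enzymes and transporters, from -2.39 to 1.15, and -0.40 for the 13 Pex genes, from -0.75 to -0.01. Per mouse, the median deviation of the enzymes from the Adult mean on the log2(CPM + 1) scale was -0.43, -1.08, -0.24, -0.41 and -1.05 in O1 to O5, and that of the Pex genes -0.19, -0.96, -0.21, -0.25 and -0.65. The enzyme median was below the Pex median in all 10 aged mice, the PDX mice included, while the difference itself was not tested. Without O2 and O5 the median log2 fold changes were -0.33 and -0.22, and the Pex genes Pex2 (0.24), Pex10 (0.17) and Pex11g (0.25) were above 0.

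Between them, O2 and O5 were the lowest Old mice for most members. O5 was the lowest Old mouse for 19 of the 38 tested members, 15 of them enzymes, and O2 for 17, 9 of them Pex genes. Chosen after the values were seen, Hao1 had 194, 73.7, 132, 145 and 2.09 CPM in O1 to O5, against 143 to 189 CPM in Adult mice. Hao2 was at 0 counts in O5 and between 20.1 and 32.9 CPM in the other Old mice, Pecr was at 12.7 CPM against 69.5 to 204, and Abcd2 at 6.02 CPM against 61.8 to 69.8. In that same liver Acaa1a (241 CPM) was above every Adult mouse and Slc27a2 (912 CPM), Gnpat (58.0 CPM) and Pex19 (125 CPM) lay within the Adult range. O5 was thus not uniformly low, and 30 of the 38 tested members were below and 5 above the Adult range there, against 34 and 3 in O2, 24 and 4 in O1, 22 and 3 in O3, and 25 and 3 in O4.

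**Figure D3:**
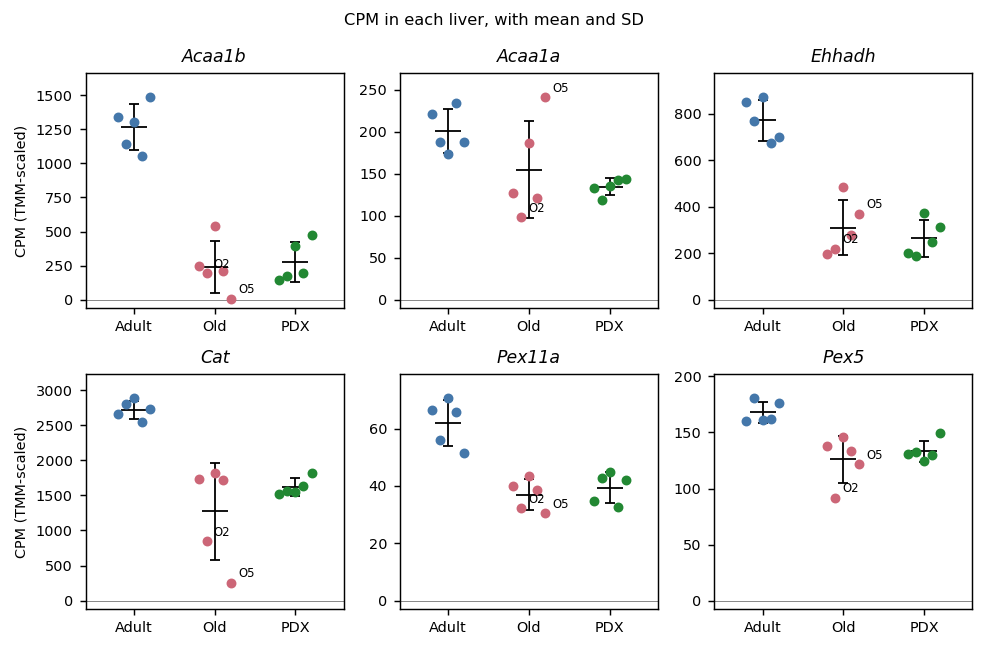
CPM after TMM scaling (y axis, starting near 0) of Acaa1b, Acaa1a, Ehhadh, Cat, Pex11a and Pex5 in each liver, by group, with the group mean and SD as black lines and O2 and O5 named. For Acaa1b, Ehhadh, Cat and Pex11a no Old or PDX point reaches the lowest Adult point, whereas Acaa1a in O5 (241 CPM) is the highest point of its panel.

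The neighbouring thiolase genes Acaa1a and Acaa1b had unequal levels across the groups. They encode close copies of the same enzyme and lie on chromosome 9 of GRCm38, Acaa1b at 119148023 to 119157093 on the minus strand and Acaa1a at 119339676 to 119350299 on the plus strand. Acaa1a had 221, 188, 173, 235 and 188 CPM in Adult, 128, 98.6, 187, 121 and 241 CPM in Old and 133, 119, 136, 143 and 144 CPM in PDX mice. The ratio of Acaa1b CPM to Acaa1a CPM, not corrected for length, was 4.49 to 7.90 in Adult mice, 1.73 to 2.89 in O1 to O4, 0.0337 in O5 and 1.09 to 3.30 in PDX mice. The mean log2 ratio was 2.65 ± 0.323 in Adult, -0.12 ± 2.68 in Old and 0.87 ± 0.706 in PDX mice (SD, n = 5 each). The ratio was chosen after the values were seen. Transcripts of the pair share 583 windows of 50 bases, or 30.5% of those of Acaa1b and 12.4% of those of Acaa1a, so unique alignment could have split or dropped some of their reads and both levels are uncertain.

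The windows around the transcription starts of 4 members are shown because the Acaa1 copies differed in their change and because Ehhadh and Pex11a fell in both aged groups. RefSeq windows (GRCm38.p6, 250 bases before to 50 after the start) were found for 33 of the 39 members, and capitals mark GGGCGG or its reverse CCGCCC, the GC box.
Acaa1a, chr9:119341044-119341343, plus strand: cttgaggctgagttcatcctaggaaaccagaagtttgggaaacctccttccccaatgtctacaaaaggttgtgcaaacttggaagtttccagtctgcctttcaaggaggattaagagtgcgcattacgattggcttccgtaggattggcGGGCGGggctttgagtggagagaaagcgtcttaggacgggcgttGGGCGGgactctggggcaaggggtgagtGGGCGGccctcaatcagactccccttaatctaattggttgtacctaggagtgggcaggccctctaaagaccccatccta
Acaa1b, chr9:119157044-119157343, minus strand: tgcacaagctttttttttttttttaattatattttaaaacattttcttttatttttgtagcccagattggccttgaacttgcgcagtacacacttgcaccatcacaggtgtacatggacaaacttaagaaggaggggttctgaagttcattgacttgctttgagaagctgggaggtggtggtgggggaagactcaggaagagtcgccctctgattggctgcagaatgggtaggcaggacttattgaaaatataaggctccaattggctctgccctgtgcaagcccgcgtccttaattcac
Ehhadh, chr16:21787785-21788084, minus strand: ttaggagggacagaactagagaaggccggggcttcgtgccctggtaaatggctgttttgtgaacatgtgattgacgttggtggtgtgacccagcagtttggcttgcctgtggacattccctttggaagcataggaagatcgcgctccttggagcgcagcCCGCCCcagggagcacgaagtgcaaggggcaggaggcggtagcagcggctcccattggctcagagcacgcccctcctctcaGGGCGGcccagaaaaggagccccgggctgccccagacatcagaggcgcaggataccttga
Pex11a, chr7:79743082-79743381, minus strand: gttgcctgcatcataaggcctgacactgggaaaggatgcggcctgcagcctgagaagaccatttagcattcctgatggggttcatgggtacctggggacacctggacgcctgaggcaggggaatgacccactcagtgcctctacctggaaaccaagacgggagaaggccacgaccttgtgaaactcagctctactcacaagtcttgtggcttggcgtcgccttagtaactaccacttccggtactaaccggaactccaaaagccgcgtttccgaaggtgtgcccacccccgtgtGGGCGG
The GC box occurred 3 times in the Acaa1a window, 0 times in that of Acaa1b, 2 times in that of Ehhadh and 1 time in that of Pex11a. The window of Acaa1a is that of a RefSeq start inside the gene, which spans 119339676 to 119350299, whereas that of Acaa1b is at the gene's outer end. The windows of the 2 copies are thus not matched in position. A GC box was found in 23 of the 33 members with a window (69.7%), against 38.2% of the 27025 genes with a window. Those 27025 genes, also the base of the motif shares below, were not limited to genes that passed the low-count filter. The part of expression in liver in this difference was not tested. CCAAT or its reverse ATTGG was found in 14 members (42.4%), against 41.1% of all genes, among them both Acaa1 copies and Ehhadh.

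The hexamer AGGTCA, which nuclear receptors such as PPARalpha recognize, was searched because several members are classical targets. It or its reverse TGACCT was found in 6 of the 33 members (18.2%), against 18.1% of all genes. The direct repeat AGGTCANAGGTCA, which contains that hexamer at both ends, was found in 0 members, against 0.0481% of all genes, which says only that these letters were not in these windows. The 6 were Scp2, Slc27a2, Phyh, Cat, Dao and Pex11g, of which edgeR called only Scp2 lower in Old mice. The hexamer stands in capitals in 30 bases of the windows of Scp2 and of Cat, both on the minus strand. The window of Scp2 is that of a RefSeq start inside the gene, which spans 108043839 to 108144998, and not at its outer end.
Scp2, chr4:108118639-108118668, minus strand: gtctaacacagtAGGTCAaaagaacccata
Cat, chr2:103485340-103485369, minus strand: tgtgactctcagAGGTCAgagaacaccagc

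Other genes of the organelle, of fatty acid oxidation and of its regulators were read from lists of their own. Of 39 other peroxisomal genes tested (of 41 listed), 7 fell in Old mice and 0 rose, with a median log2 fold change of -0.42 (by DESeq2 11, by limma 5, and 6 without O2 and O5). The calls with the smallest p were those of the glutathione transferase Gstk1 (-1.05, adjusted p = 0.0264), the acyl-CoA dehydrogenase Acad11 (-0.72, adjusted p = 0.0292), the membrane tether Acbd5 (-0.82, adjusted p = 0.0311), the thioesterase Acot8 (-0.41, adjusted p = 0.0378), the CoA hydrolase Nudt7 (-1.61, adjusted p = 0.0405) and the transporter Slc25a17 (-0.50, adjusted p = 0.0487).

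Of 15 PPARalpha targets outside the peroxisome, 2 fell, Acsl1 (-1.08, adjusted p = 0.0264) and Slc25a20 (-0.54, adjusted p = 0.0463), and 0 rose, with a median of -0.49 (by DESeq2 3, by limma 1, and 1 without O2 and O5). Fabp1, the most abundant, did not pass (-0.43, adjusted p = 0.766). Of 9 receptors and coactivators edgeR called 0, with 1 at an unadjusted p under 0.05, 1 called by DESeq2 and 0 by limma. Ppara itself had a log2 fold change of -0.21 (adjusted p = 0.703) and Hnf4a, the most abundant of them, -0.07 (adjusted p = 0.900). Of 15 genes of mitochondrial fatty acid oxidation edgeR called 0, with 8 at an unadjusted p under 0.05, 3 called by DESeq2 and 0 by limma. All 15 had log2 fold changes below 0, with a median of -0.46, and Acaa2, the mitochondrial thiolase and most abundant of them, was at -0.57 (adjusted p = 0.232).

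The comparison of PDX with Adult mice placed the treated aged livers against the young ones, using the same Adult mice as the comparison of Old with Adult. Ehhadh, Pex26 and Pex11a fell, and no member was called higher. These 3 of 38 tested members (7.89%) stood against 0.898% of all genes called lower in edgeR's test. None was called higher, against 1.76% of all genes, with 0 at an unadjusted p under 0.05, 0 by DESeq2 and 0 by limma. Without overlap of the mice 21 members were lower in PDX, against 9.34% of all genes, and 0 higher, against 10.5%.

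Ehhadh had 200, 187, 374, 248 and 311 CPM in P1 to P5, all below the Adult range of 672 to 869 CPM. It fell by 1.55 on the log2 scale (SE 0.257, adjusted p = 0.00577), and this call held under all 23 alternatives. Pex26 had 14.9, 13.5, 17.6, 19.5 and 22.4 CPM and fell by 0.83 (SE 0.177, adjusted p = 0.0209), and Pex11a had 34.8, 42.8, 45.0, 32.5 and 42.1 CPM and fell by 0.65 (SE 0.135, adjusted p = 0.0187). Both were below every Adult mouse in all PDX mice, but Pex26 lost the call without A1, A4, A5, P1, P2 or P3 (adjusted p over all alternatives 0.000884 to 0.0670) and Pex11a without A1, A3, A4, P1 or P4 (0.000482 to 0.0646).

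Acaa1b and Cat did not pass in edgeR's fit of all mice, while DESeq2 called Acaa1b. Acaa1b had 145, 175, 391, 195 and 474 CPM in P1 to P5, all below the lowest Adult mouse, with a log2 fold change of -2.20 (SE 0.655, adjusted p = 0.0839). Cat had 1519, 1570, 1542, 1635 and 1824 CPM, again all below the Adult mice, with a log2 fold change of -0.75 (SE 0.367, adjusted p = 0.260). In the shared fit the spread of a gene is estimated from all 3 groups, the Old mice included. The count of 3 was 12 without O2, 16 without O5, 23 without both (with Agps called higher), 26 when only the 10 Adult and PDX mice were fitted (with Agps and Far1 called higher), and 1 without A1, A4 or P1. The genes called among all 15808 numbered 420 with all mice, 1766 without O2, 1744 without O5, 4004 without both, and 4529 with only the 10 Adult and PDX mice. Without O2 and O5, Cat had a log2 fold change of -0.73 (adjusted p = 0.000159) and Acaa1b of -2.18 (adjusted p = 0.000874).

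By role, the log2 fold changes between PDX and Adult not yet given were -0.58 for Acaa1a, -0.20 for Acox2, -0.09 for Acox3, -0.33 for Hsd17b4, -0.65 for Scp2, 0.05 for Amacr, -0.36 for Decr2 and -0.67 for Pecr in beta-oxidation. They were -0.64 for Abcd3, -0.63 for Slc27a2, 0.01 for Abcd2, -0.85 for Crot, -0.56 for Crat, -0.47 for Phyh and -0.36 for Hacl1. Among oxidases they were -0.75 for Uox, -0.67 for Pipox, -0.31 for Hao1 and -0.11 for Hao2, and in ether lipid synthesis -0.39 for Gnpat, 0.37 for Agps and 0.56 for Far1, and none of these members passed in edgeR's test, while DESeq2 called Abcd3, Slc27a2, Crot and Gnpat, and of the Pex genes Pex13 and Pex19. Among Pex genes those not called by edgeR ranged from -0.49 (Pex19) to 0.11 (Pex2). The median was -0.47 for the enzymes and -0.32 for the Pex genes, against -0.01 for all genes tested. Of the other peroxisomal genes 2 of 39 fell (without O2 and O5, 15 fell and 3 rose), Slc25a17 (-0.56, adjusted p = 0.0488) and Ephx2 (-1.07, adjusted p = 0.0432), and of the PPARalpha targets outside the peroxisome Acot1 (-2.38, adjusted p = 0.0162), Acsl1 (-1.25, adjusted p = 0.0156) and Slc25a20 (-0.64, adjusted p = 0.0375), with 6 lower and 1 higher without O2 and O5. Of the 15 genes of mitochondrial fatty acid oxidation edgeR called 0 between PDX and Adult, with 5 at an unadjusted p under 0.05, 2 called by DESeq2 and 0 by limma. Without O2 and O5 edgeR called 11 of them lower, in a fit that called 4004 genes in either direction. For 14 of the 15 every PDX mouse was below every Adult mouse, against 9.34% of all genes.

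The PDX sums of the neutrophil, macrophage and lymphocyte markers given above were all above those of every Adult mouse. EdgeR called the neutrophil markers Elane (4.95, adjusted p = 0.0153) and Mpo (5.88, adjusted p = 0.0204) and the lymphocyte marker Jchain (2.43, adjusted p = 0.0235) higher in PDX than Adult mice, and without O2 and O5 it called 7 of 7 neutrophil, 5 of 6 macrophage and 5 of 6 lymphocyte markers higher, and also 2 hepatocyte markers lower and 2 higher, and 2 endothelial markers lower and 1 higher. In that fit 1 stellate cell marker was also called lower and 1 higher, and 1 cholangiocyte marker higher. With all mice DESeq2 called 7 neutrophil, 2 lymphocyte and 1 cholangiocyte markers higher and 1 stellate cell marker lower, and limma 1 neutrophil marker higher. Among the hepatocyte markers Ttr (-0.60) and Apoa2 (-0.74) were below and Ahsg (0.53) and Fgb (0.91) above every Adult mouse in all PDX mice, none of them called with all mice in the fit. Their part in the result was not tested.

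The comparison of PDX with Old mice asked what the treatment changed in aged livers, with the same Old mice as in the comparison of Old with Adult. No member was called in either direction at the threshold of 0.25 used for this comparison, nor was any of the 15808 genes tested (0%), the smallest adjusted p being 0.793. By DESeq2 and by limma on the deposited values 0 members were called, and by DESeq2 1 gene in all. At an unadjusted p under 0.05 there were 2 of 38 members, against 5.28% of all genes. For 0 members were all PDX mice on 1 side of all Old mice, against 0.342% of all genes.

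The 3 members with the smallest p were Crat, Decr2 and Pex6. Crat had 43.1, 45.6, 50.5, 46.9 and 71.9 CPM in P1 to P5, with P1 to P4 below O1, O3, O4 and O5, and a log2 fold change of -0.47 (SE 0.185, adjusted p = 0.793). Decr2 had 168, 170, 168, 150 and 149 CPM, every value above those of O1, O2, O4 and O5, and P4 and P5 below O3, with a log2 fold change of 0.39 (SE 0.164, adjusted p = 0.793). Pex6 had 108, 101, 98.9, 105 and 123 CPM, above O2, O3 and O5 throughout, with a log2 fold change of 0.30 (SE 0.192, adjusted p = 0.793).

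The median log2 fold change between PDX and Old was 0.14 for the enzymes and 0.06 for the Pex genes, against -0.07 for all genes tested. These medians rested on O2 and O5: without both they were -0.10 and -0.11, without O2 0.04 and -0.08, and without O5 0.01 for the enzymes. Over the 38 tested members the log2 fold changes ranged from -0.59 (Far1) to 0.85 (Hao2), both of which carry the levels of O2 or O5. Per mouse, the median deviation of the enzymes from the Adult mean was -0.45, -0.52, -0.57, -0.48 and -0.34 in P1 to P5 and that of the Pex genes -0.36, -0.34, -0.33, -0.37 and -0.29. Every PDX mouse thus had an enzyme median above those of O2 and O5 and below that of O3. Of the other lists, edgeR called 0 genes between PDX and Old, as did DESeq2 and limma.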

How the data were processed

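Liver mRNA of 15 mice was sequenced as stranded pairs of 50 bases. The authors aligned them to mm10 (STAR 2.6.0c) and deposited counts of unique proper pairs on the gene's strand (featureCounts, Subread 1.6.2, Ensembl 100), not normalized, and log2-scale values from the variance stabilizing transformation of DESeq2 1.23.10. Of 55450 gene IDs, 55190 received symbols and GRCm38 coordinates from GENCODE M21. Counts were filtered (filterByExpr, minimum count 10, minimum total 15), scaled with TMM and fitted with edgeR 4.0.16 in R 4.3.3 with 1 coefficient per group, and tested by its quasi-likelihood test with Benjamini-Hochberg adjustment. Thresholds were 0.05, and 0.25 between PDX and Old. Alternatives used DESeq2 1.42.0 (Wald test), limma 3.58.1 on the deposited log2 values, other scaling, no low-count filter, 2 groups only, a replicate block by mouse number, and fits without mice. The paper mentions handling of mice in batches, which are not given per mouse, so no fit accounted for them. Values per mouse were named by a rule for members past the threshold, 1 or more per role, the 3 smallest p between PDX and Old, and Pex5 and Pex14. The members and lists, among them markers of hepatocytes, macrophages, lymphocytes, neutrophils, endothelial, stellate and erythroid cells and cholangiocytes, were chosen with earlier results of these data known.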

Additional observations from a re-analysis of the deposited data

Results flagged for a closer look

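In each group of 5 mice, a member was singled out where 1 mouse lay far from the other 4 (a gap of over 0.71 of the whole range). This held for 4 of 114 groups (3.51%), and chance gives about 1 in 20. Abcd2 was at 6.02 CPM in O5, against 61.8 to 69.8 CPM in the other Old mice. Abcd3 was at 607 CPM in A4, against 508 to 534 CPM in the other Adult mice, and at 433 CPM in P2, against 303 to 332 CPM in the other PDX mice. Crat was at 71.9 CPM in P5, against 43.1 to 50.5 CPM in the other PDX mice.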

How the results depend on the processing

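Members lower in Old than Adult (9) numbered 16 with DESeq2, 3 without the low-count filter, 0 with only the 2 groups and 3 with the replicate block, and 2 to 18 without 1 mouse. Members higher in Old numbered 1 with DESeq2 and 0 to 1 without 1 mouse. Members lower in PDX than Adult (3) numbered 10 with DESeq2, 26 with only the 2 groups, 23 without O2 and O5 and 1 to 16 without 1 mouse, and members higher numbered 2 with only the 2 groups and 1 without O2 and O5. All genes called between Old and Adult (1072) numbered 2642 with DESeq2, 651 with limma, 665 without the filter, 105 with 2 groups, 237 with the replicate block and 156 to 2178 without 1 mouse. Between PDX and Old the number was 1 with DESeq2. Between PDX and Adult (420) it was 1401 with DESeq2, 4529 with 2 groups, 4004 without O2 and O5 and 166 to 1766 without 1 mouse. The median between PDX and Old was -0.10 (enzymes) and -0.11 (Pex) without O2 and O5, 0.0145 (Pex) with library size only, and 0.0144 to 0.28 and -0.0768 to 0.10 without 1 mouse, and that of Pex genes between PDX and Adult -0.34 to -0.28. Fits of fewer mice have fewer degrees of freedom, but the calls rose in some of them and dropped in others. Why the numbers of calls moved was not tested. Same-numbered mice are different animals whose deviations correlated at -0.17 (Old and Adult), 0.09 (PDX and Old) and 0.03 (PDX and Adult) on average. No called member changed sign. For members not called, the sign changed in some alternative in 7 of 29 for Old against Adult. It changed in 2 of 35 for PDX against Adult and in 29 of 38 for PDX against Old. Of members not called, 14 of 29 were called in some alternative for Old against Adult, 25 of 35 for PDX against Adult and 0 of 38 for PDX against Old.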
